A study of Caenorhabditis elegans with 16 samples.

Results

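The F45D11 gene cluster comprises 4 genes, named F45D11.4 (WBGene00018451), F45D11.14 (WBGene00018459), F45D11.15 (WBGene00018460) and F45D11.16 (WBGene00018461), among the 46904 gene IDs of the count table. They were selected on their measured counts, as genes lower than in WT animals in each of the single mutants, pals-22(jy3) and pals-25(jy111), so those 2 comparisons are given below as description only and support nothing. A further 11 of the 15 genes whose sequence name starts with F45D11 were not chosen. Whole *Caenorhabditis elegans* L4 larvae were the source of RNA, with 4 libraries labelled as biological replicates for each of 4 genotypes. These were pals-22(jy3) mutants, with a loss-of-function allele of pals-22, pals-25(jy111) mutants, in which genome editing introduced a premature stop codon into pals-25 as a gain-of-function allele carried by 1 selected line, animals with the genotype pals-22(jy3) pals-25(jy9), hereafter the double mutants, which add a loss-of-function substitution in pals-25, and WT animals of the N2 strain. Synchronized animals of all genotypes were grown at 20°C on *Escherichia coli* OP50-1 and pooled for each library, for 44 h except for pals-22(jy3) mutants, which were grown for 48 h. The growth time and the pals-22(jy3) genotype cannot be told apart.

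PALS-22 and PALS-25 are paralogous proteins encoded by neighbouring genes, where PALS-22 acts as a repressor and PALS-25 as an activator of the Intracellular Pathogen Response and of the Oomycete Recognition Response, transcriptional programs that worms switch on during infection by intracellular pathogens and oomycetes. Loss of PALS-22, or truncation of PALS-25, turns these programs on without infection, whereas further loss of PALS-25 turns them off. The annotation used here gives the F45D11 genes no role and no descriptive name. They sit on a chromosome arm, where worm gene families often lie in tandem arrays of copies, some of which are pseudogenes, copies annotated as coding for no protein.

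All 4 members lie between positions 1004616 and 1018100 of chromosome II, as annotated on the WBcel235 assembly. F45D11.14 spans positions 1004616 to 1006475 on the reverse strand and is annotated as protein coding, with 8 exons and 508 codons. F45D11.4 spans 1007792 to 1009036 on the forward strand and is annotated as a pseudogene with 4 exons. F45D11.15 spans 1010444 to 1012282 and F45D11.16 spans 1016262 to 1018100, both on the reverse strand, and each is annotated as protein coding with 8 exons and 501 codons. The members therefore include 3 coding genes on one strand and 1 pseudogene on the other, and no member overlaps another.

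The annotation of the cluster is regular in its spacing. The starts of F45D11.14 and F45D11.15 are 5828 bases apart, and those of F45D11.15 and F45D11.16 are 5818 bases apart. Between and beyond them on the forward strand lie the pseudogenes F45D11.4, F45D11.3 (1013620 to 1014864) and F45D11.2 (1019438 to 1020682), spaced by the same 5828 and 5818 bases. These pseudogenes have 4 exons each, of 389, 129, 248 and 343 bases in all 3 of them. The lengths of 129 and 248 bases also occur, next to each other, in the coding members. F45D11.15 and F45D11.16 have identical exon lengths, of 223, 54, 215, 69, 126, 129, 248 and 442 bases, and identical lengths of all 7 introns, whereas F45D11.14 differs from both only in its first exon, of 244 bases. The sources used here do not say how reads matching more than 1 gene were counted, so the division of reads among these near-identical gene models is uncertain, and sums over the members are given beside the single genes.

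**Figure D1:**
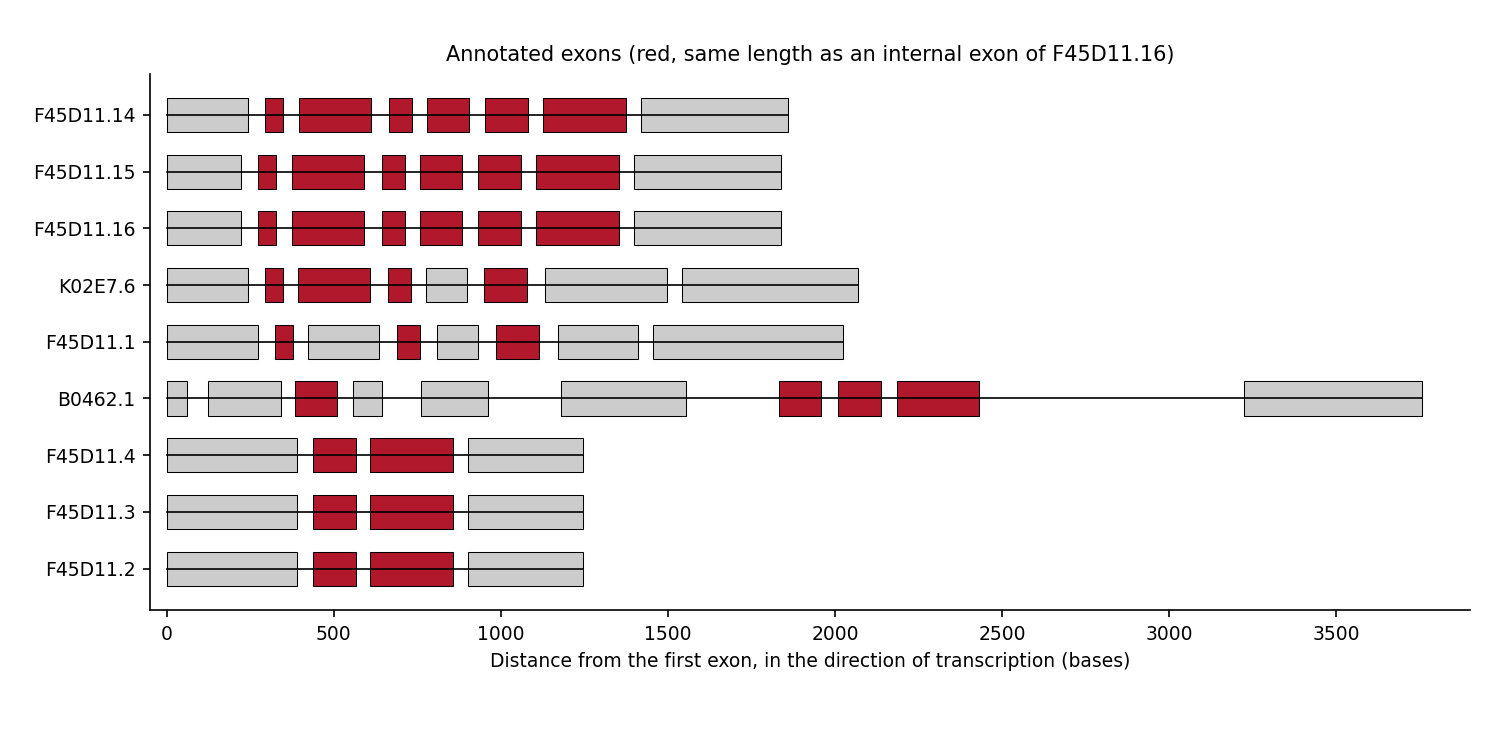
Annotated exons (boxes) and introns (lines) of the 4 members, the pseudogenes F45D11.1, F45D11.2 and F45D11.3 and the pseudogenes K02E7.6 and B0462.1, found by exon lengths only, drawn to scale in bases from the first exon in the direction of transcription, with exons of the same length as one of the 6 internal exons of F45D11.16 in red. F45D11.14, F45D11.15 and F45D11.16 share all 6 internal exon lengths. F45D11.4, F45D11.2 and F45D11.3 share 1 set of exon lengths, of which 129 and 248 bases are also internal exon lengths of F45D11.16.

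A search of the annotation for genes that share at least 3 of the 6 internal exon lengths of F45D11.16, in order, returned 6 of 18109 genes with a transcript of 3 to 14 exons (0.0331%). The criterion was chosen after the files were seen. Besides the 3 coding members, they were K02E7.6, a pseudogene on chromosome II from 1057212 to 1059280 that shares 4 of the lengths, the pseudogene F45D11.1 (1021505 to 1023528), adjacent to the cluster on the forward strand, which shares 3, and B0462.1, a pseudogene on chromosome V from 18325035 to 18328791, which shares 3. Equal exon lengths describe gene models and are no measure of sequence identity, which was not computed here.

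Libraries held 14028579 (WT replicate 1) to 34151410 reads counted on genes, with a median of 25854371. CPM values below are read counts divided by these totals and multiplied by 1e6, scaled by TMM factors over all 16 libraries. The mutated genes were counted in all libraries, with pals-22 at 20.9 ± 2.81 CPM in pals-22(jy3) libraries, 9.53 ± 0.675 CPM in pals-25(jy111) libraries, 6.37 ± 0.753 CPM in the double mutants and 4.25 ± 0.676 CPM in WT animals (SD, n = 4 each). Counts do not show the mutated bases. All marker genes of intestine, epidermis, body muscle, pharynx and neurons had reads in all 16 libraries, as did 30 of 31 sperm genes, and the summed levels of some lists differed between genotypes, as given beside the comparisons below. The summed level of 5 vitellogenins, yolk proteins made in the adult intestine, which had reads in all 16 libraries, was 1780 to 3200 CPM in pals-22(jy3) mutants, 583 to 1090 CPM in pals-25(jy111) mutants and 704 to 1390 CPM in WT animals, and in the double mutants it was 41.7 CPM in replicate 4 and 420 to 841 CPM in the others. The part of these differences in the results below was not tested. In whole animals, fewer cells that express a gene and less RNA per cell cannot be told apart.

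F45D11.16, the most abundant member, had 0.476, 0.380, 0.490 and 0.703 CPM in the 4 pals-22(jy3) libraries, 0.861, 1.12, 0.465 and 1.91 CPM in the pals-25(jy111) libraries, 6.41, 4.92, 4.10 and 12.7 CPM in the libraries of the double mutants and 16.4, 6.18, 5.52 and 8.42 CPM in the WT libraries. All libraries of both single mutants were thus below all libraries of the double mutants and of WT animals, and the ranges of the double mutants and WT animals overlapped. F45D11.15 had 0.168, 0.234, 0.264 and 0.259 CPM in pals-22(jy3) libraries, 0.478, 0.492, 0.232 and 0.876 CPM in pals-25(jy111) libraries, 2.27, 1.45, 1.85 and 4.23 CPM in the double mutants and 5.41, 3.44, 2.22 and 3.99 CPM in WT libraries. F45D11.14 had 0.196, 0.0877, 0.151 and 0.185 CPM in pals-22(jy3) libraries, 0.478, 0.447, 0.271 and 0.558 CPM in pals-25(jy111) libraries, 2.58, 1.88, 1.33 and 4.57 CPM in the double mutants and 4.91, 2.14, 1.89 and 2.73 CPM in WT libraries. Both genes had the same order of genotypes as F45D11.16, with the lowest values in pals-22(jy3) mutants.

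The pseudogene F45D11.4 had 0.0560 and 0.0584 CPM in replicates 1 and 2 of pals-22(jy3) and no read in replicates 3 and 4, 0.542, 0.224, 0.232 and 0.478 CPM in pals-25(jy111) libraries, 1.64, 0.723, 1.13 and 0.762 CPM in the double mutants and 4.76, 1.79, 1.09 and 1.78 CPM in WT libraries. Only 4 reads were counted on it in pals-22(jy3) mutants in all, against 40 in pals-25(jy111), 110 in the double mutants and 181 in WT animals. Of the members, this gene had the lowest counts, so its values carry the largest counting error. Summed over the 4 genes, expression was 0.927 ± 0.161 CPM in pals-22(jy3) libraries, 2.42 ± 1.08 CPM in pals-25(jy111) libraries, 13.1 ± 6.39 CPM in the double mutants and 18.2 ± 9.22 CPM in WT animals (SD, n = 4 each). The highest sums in their genotypes were those of double mutant replicate 4, with 22.2 CPM, and WT replicate 1, the shallowest library, with 31.5 CPM. WT replicate 1 also had the highest vitellogenins of the WT libraries, 1390 CPM against 704 to 802 CPM. Its summed sperm genes were at 1330 CPM against 396 to 764 CPM. In each genotype the summed sperm genes were highest in replicate 1, at 1180 to 1410 CPM. The part of these differences in the sums of the members was not tested.

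**Figure D2:**
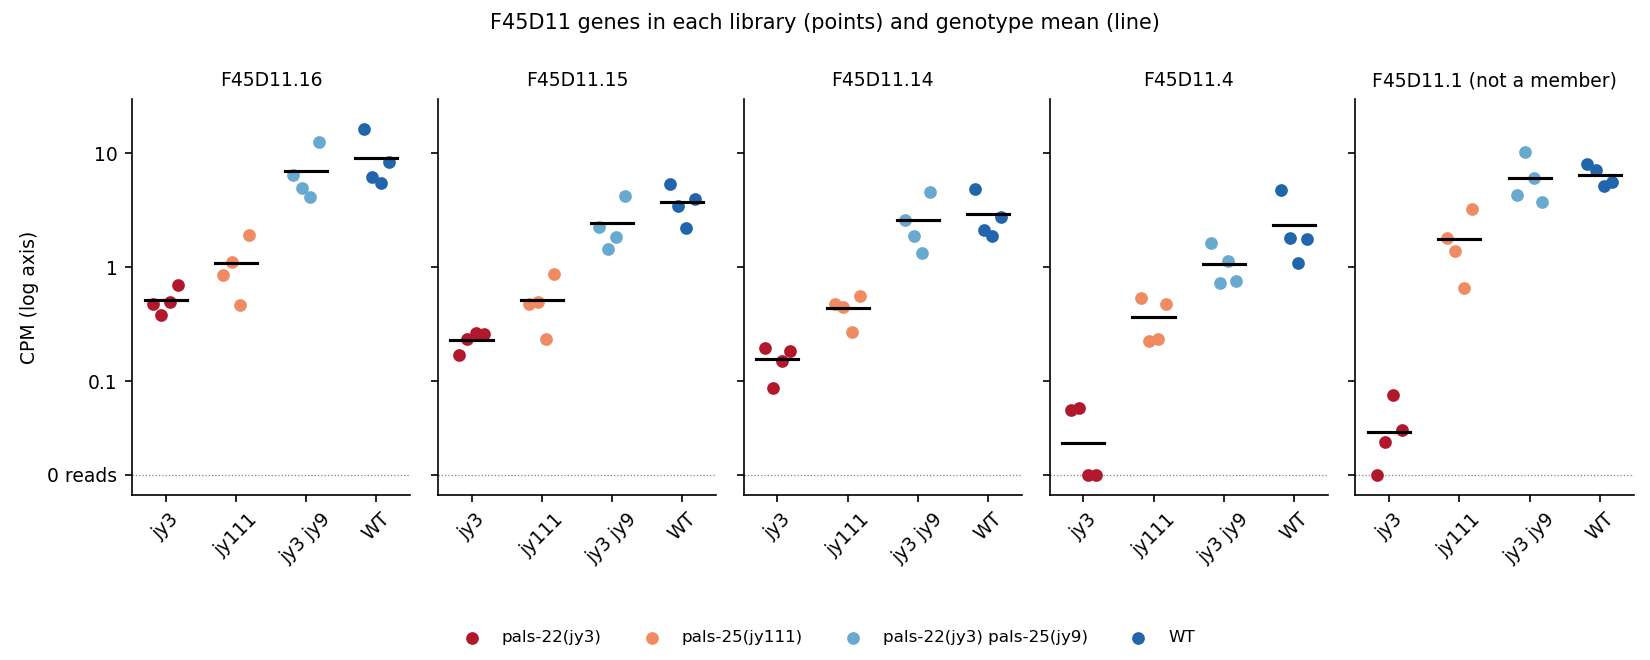
CPM on a log axis of the 4 members and of the neighbouring pseudogene F45D11.1 in each of 16 libraries (points; 4 per genotype, in order of replicate) with the genotype mean (lines), in the order pals-22(jy3), pals-25(jy111), pals-22(jy3) pals-25(jy9) and WT, and with libraries without a read on the dotted line. In each of the 5 genes, the 8 libraries of the single mutants are below the 8 libraries of the double mutants and WT animals. The 4 members were chosen as low in the single mutants, and the share of all genes with this pattern was not computed.

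Per kb of counted gene length, which allows levels to be compared between genes, F45D11.16 was at 0.340 CPM per kb in pals-22(jy3) mutants, 0.723 in pals-25(jy111), 4.67 in the double mutants and 6.06 in WT animals. In WT animals F45D11.15 followed with 2.50, F45D11.4 with 2.12 and F45D11.14 with 1.91 CPM per kb. These are orders of means, and the CPM ranges of these 3 genes overlapped among the WT libraries.

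The first comparison asked whether the members were changed in the double mutants, in which pals-25 activity is lost, relative to WT animals. The double mutants took no part in the choice of the genes, whereas the WT libraries did, as libraries in which the genes were high. None of the 4 members passed the test, the quasi-likelihood test of edgeR adjusted by the Benjamini-Hochberg method over all 14551 genes tested, of which 6.07% were lower at an adjusted p under 0.05. F45D11.14 differed on the log2 scale by -0.18 (SE 0.44, adjusted p = 0.830), F45D11.15 by -0.64 (SE 0.39, adjusted p = 0.321) and F45D11.16 by -0.40 (SE 0.46, adjusted p = 0.623). F45D11.4 had the largest difference, a log2 change of -1.14 (SE 0.48, adjusted p = 0.164), and was the 1 member with an unadjusted p under 0.05, at 0.0439. DESeq2 and limma-voom called 0 members as well, with 1 and 0 members at an unadjusted p under 0.05. The 4 members had a median log2 difference of -0.52, and that of all genes tested was 0.02. Without WT replicate 1, F45D11.14 and F45D11.16 changed sign, to 0.16 and 0.03, and without double mutant replicate 3 F45D11.14 was at 0.04. A p that misses the threshold does not show that the genotypes were alike, and each SE here was 0.39 or more. The 3 body muscle markers were higher without overlap, with sums of 7730 to 9820 CPM in the double mutants and 6550 to 7340 CPM in WT animals. The 6 intestine markers were at 4510 to 6160 CPM in the double mutants and 3400 to 4760 CPM in WT animals, which overlap. The part of these markers in the result was not tested.

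The second comparison, of pals-22(jy3) with the double mutants, varies pals-25 in animals that all carry pals-22(jy3). The genes were chosen as low in these same pals-22(jy3) libraries, and they passed the filter of 0.5 CPM in 4 or more libraries only through the double mutants, where they are high, so a fall was partly set by the choice and the values and calls describe these libraries without being independent support. In that sense all 4 members were lower in pals-22(jy3) mutants, where 11.1% of 14878 genes were lower. F45D11.16 fell to 0.512 ± 0.136 CPM in pals-22(jy3) mutants, against 7.03 ± 3.89 CPM in the double mutants (SD, n = 4 each), a log2 change of -3.81 (SE 0.42, adjusted p = 0.000566). F45D11.14 fell to 5.98% and F45D11.15 to 9.45% of their mean CPM in the double mutants, with log2 fold changes of -4.07 (SE 0.48, adjusted p = 0.000756) and -3.43 (SE 0.40, adjusted p = 0.000741). F45D11.4 had a log2 change of -4.92 (SE 0.63, adjusted p = 0.00119), which rests on 4 reads in pals-22(jy3) mutants. The groups did not overlap in any of the 4 genes. That is a description of the libraries that chose them, and the share of all genes without overlap was not computed. All 4 calls remained without any 1 of the 8 libraries, with the log2 fold changes of F45D11.16 between -3.99 and -3.36. The median of the 4 members was -3.94, and that of all genes was -0.09. Summed as 1 feature, the members had a log2 change of -3.86 (SE 0.36, adjusted p = 0.000223), a value that the division of reads among the 4 does not affect. The sum does not cover reads divided with F45D11.2 and F45D11.3, or reads that were left uncounted. Here the growth times were 48 h and 44 h, and the summed vitellogenins were 1780 to 3200 CPM in pals-22(jy3) mutants and 41.7 to 841 CPM in the double mutants. The 3 pharynx markers were lower without overlap, with sums of 34.6 to 95.4 CPM in pals-22(jy3) mutants and 96.6 to 174 CPM in the double mutants, and the 4 neuron markers were higher without overlap, at 358 to 416 CPM in pals-22(jy3) mutants and 320 to 344 CPM in the double mutants. The part of the growth time and of these markers in the result was not tested.

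The third comparison, of pals-25(jy111) with the double mutants, sets the gain-of-function against the loss-of-function allele of pals-25, with pals-22 intact in the first and mutated in the second genotype. All animals of it were grown for 44 h. Here too the genes were chosen as low in the pals-25(jy111) libraries, and reached 0.5 CPM in 4 libraries only with those of the double mutants, so the calls are no independent support. With that limit, the 3 coding members were lower in pals-25(jy111) mutants, where 0.943% of 14743 genes were lower. F45D11.16 fell to 1.09 ± 0.611 CPM in pals-25(jy111) mutants, against 7.03 ± 3.89 CPM in the double mutants (SD, n = 4 each), with a log2 change of -2.65 (SE 0.51, adjusted p = 0.0304). F45D11.14 had a log2 change of -2.51 (SE 0.44, adjusted p = 0.0196) and F45D11.15 of -2.19 (SE 0.47, adjusted p = 0.0449). The pseudogene F45D11.4 had -1.46 (SE 0.40, adjusted p = 0.0968) and was not called by edgeR, whereas DESeq2 called it, at -1.48 (adjusted p = 0.0225). The groups did not overlap in any of the 4 genes, and the share of all genes without overlap was not computed here either. The median of the members was -2.36 where that of all genes was 0.00. These calls depended on single libraries. When double mutant replicate 1, or any of the pals-25(jy111) replicates 1 to 3, was left out, 0 of the 4 genes were called at an adjusted p of 0.0520 or more while all 4 had an unadjusted p under 0.05, and 1 was called without double mutant replicate 2 and 2 without replicate 3, although the log2 fold changes of F45D11.16 stayed between -3.05 and -2.19. Without double mutant replicate 4, which stands apart in vitellogenins, 2 members were called. The 3 body muscle markers were lower without overlap, with sums of 6200 to 7490 CPM in pals-25(jy111) mutants and 7730 to 9820 CPM in the double mutants, and the 6 intestine markers were at 2910 to 4820 CPM in pals-25(jy111) mutants and 4510 to 6160 CPM in the double mutants, which overlap. The part of these markers in the result was not tested. The sum of the 4 had a log2 change of -2.40 (SE 0.43, adjusted p = 0.0229).

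The single mutants were compared with each other to ask whether the genes were lower without PALS-22 than with truncated PALS-25. Both groups of libraries were used in choosing the genes, each against WT. Only F45D11.16 had enough reads in these 8 libraries to be tested, since the filter required 0.5 CPM in at least 4 of them. Its level was 0.512 ± 0.136 CPM in pals-22(jy3) mutants and 1.09 ± 0.611 CPM in pals-25(jy111) mutants (SD, n = 4 each), with overlapping ranges, and a log2 change of -1.15 (SE 0.44, adjusted p = 0.131), where 6.11% of 14847 genes were lower. DESeq2 and limma-voom called 0 members as well, and an unadjusted p under 0.05 was reached by F45D11.16 in edgeR and DESeq2 and not in limma-voom. Same-numbered libraries of these 2 genotypes deviated together, and with the replicate number as a block F45D11.16 was called lower in pals-22(jy3), at -1.08 (SE 0.31, adjusted p = 0.0257). In 1 edgeR fit over all 16 libraries, where all 4 members passed the filter through double mutant and WT libraries, F45D11.4 had -3.37 (SE 0.76, adjusted p = 0.00586) and F45D11.14 had -1.48 (SE 0.49, adjusted p = 0.0484), and both were called. F45D11.15 and F45D11.16 were at -1.16 (adjusted p = 0.0968) and -1.09 (adjusted p = 0.158) in that fit and were not called. The value of F45D11.4 rests on 4 reads in pals-22(jy3) and 40 in pals-25(jy111) mutants. Summed as 1 feature, the 4 members were at 38.3% of their pals-25(jy111) level in pals-22(jy3) mutants, with a log2 change of -1.44 (SE 0.35, adjusted p = 0.0313). The calls on single members in this comparison thus differed between the fits, which vary in filter, model and pairing. The part of each was not tested. The growth times were 48 h for pals-22(jy3) and 44 h for pals-25(jy111) mutants. The summed vitellogenins did not overlap, at 1780 to 3200 CPM in pals-22(jy3) and 583 to 1090 CPM in pals-25(jy111) mutants. The part of the growth time and of these markers in the result was not tested.

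The 2 comparisons that chose the genes gave the following values. In pals-25(jy111) against WT, the log2 fold changes were -3.05 for F45D11.16, -2.83 for F45D11.15, -2.69 for F45D11.14 and -2.60 for F45D11.4, and 1.41% of 14671 genes were lower. In pals-22(jy3) against WT, they were -4.20 for F45D11.16, -4.07 for F45D11.15, -4.24 for F45D11.14 and -6.04 for F45D11.4, and 11.3% of 14803 genes were lower. F45D11.4 in pals-25(jy111) against WT had an adjusted p of 0.0369 by edgeR. The neighbouring F45D11.1, which was not chosen, was at -1.86 and an adjusted p of 0.0520 by edgeR in the same comparison, where DESeq2 and limma-voom gave 0.000543 and 0.0288. With the replicate number as a block, which pairs these libraries, F45D11.1 had -1.96 (adjusted p = 0.0118 by edgeR). F45D11.4 was no longer past the threshold without WT replicate 2 or 4 or without any 1 of the pals-25(jy111) libraries.

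**Figure D3:**
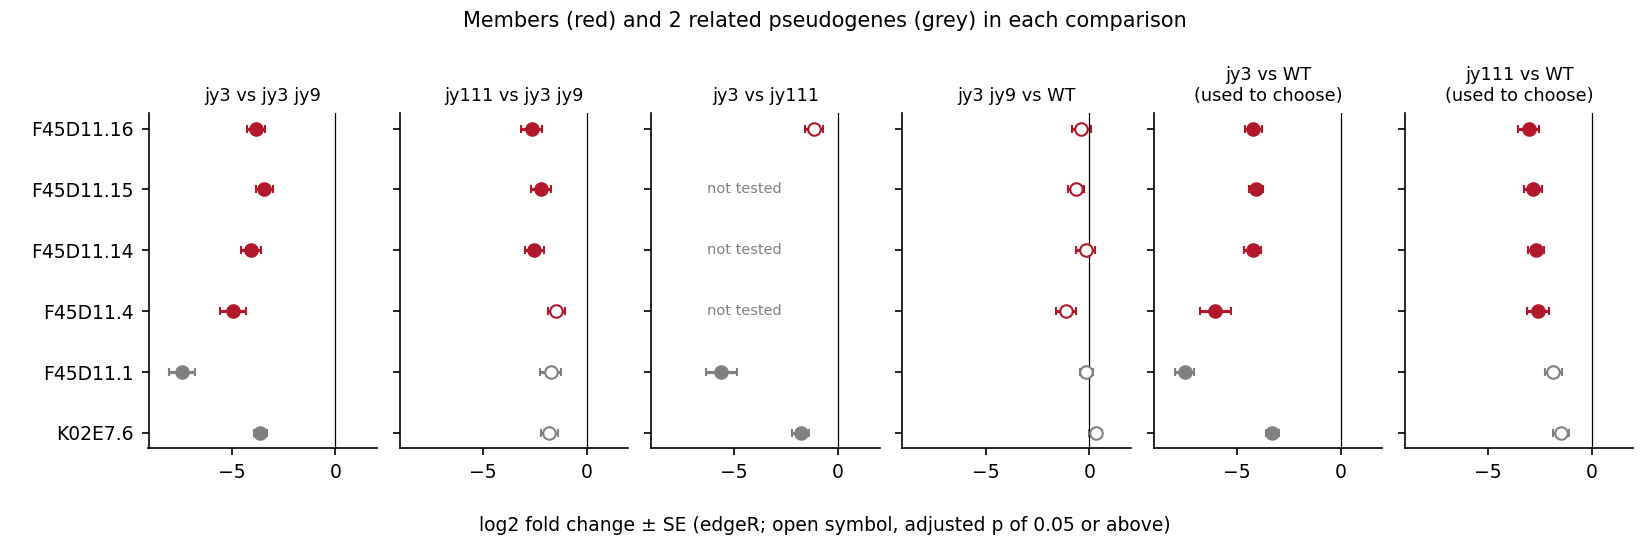
Log2 fold change ± SE from edgeR of the 4 members (red) and of the pseudogenes F45D11.1 and K02E7.6 (grey) in 6 comparisons, the last pair of which chose the members, with filled symbols for an adjusted p under 0.05. The members are called in pals-22(jy3) against the double mutants (4 of 4) and in pals-25(jy111) against the double mutants (3 of 4), comparisons that share the single mutant libraries with the choice of the genes, and none is called in the double mutants against WT.

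The proportions among the members were compared as shares of the reads counted on all 4, which total 113 reads in pals-22(jy3), 252 in pals-25(jy111), 1346 in the double mutants and 1447 in WT animals. F45D11.16 held 54.9% in pals-22(jy3) (exact Clopper-Pearson 95% interval 45.2 to 64.2%), 44.4% in pals-25(jy111) (38.2 to 50.8%), 53.4% in the double mutants (50.7 to 56.1%) and 49.8% in WT animals (47.2 to 52.4%). It thus held the largest share in each genotype. F45D11.15 held 18.8% to 24.8% and F45D11.14 held 16.2% to 19.6% across the genotypes. F45D11.4 differed more, with 3.54% in pals-22(jy3) (0.973 to 8.82%), 15.9% in pals-25(jy111) (11.6 to 21.0%), 8.17% in the double mutants (6.76 to 9.77%) and 12.5% in WT animals (10.8 to 14.3%). These intervals cover counting error only, and single libraries of the double mutants ranged from 3.42% to 13.4% for F45D11.4.

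**Figure D4:**
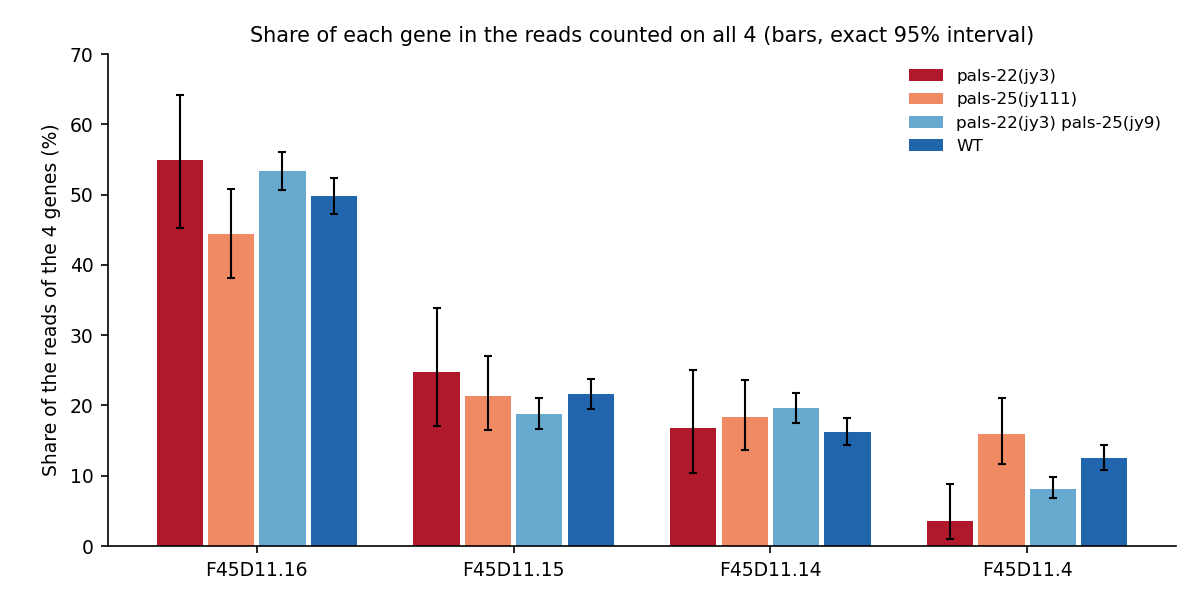
Share of each member in the reads counted on all 4 members, in percent, with reads pooled over the 4 libraries of each genotype (bars, left to right pals-22(jy3), pals-25(jy111), pals-22(jy3) pals-25(jy9) and WT) and exact 95% intervals for counting error. F45D11.16 holds 44.4% to 54.9% in all genotypes, and F45D11.4 holds 3.54% to 15.9%.

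Across the 16 libraries, log2(CPM + 0.5) of any 2 members had Pearson correlations of 0.892 to 0.991 over the 6 pairs. With the genotype means taken out, the correlations were 0.477 to 0.932. These are descriptions, since the libraries share the genotype differences that chose the genes. Genes with matching exon lengths may also share reads, which was not tested.

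The genes around the members did not all follow them. The neighbouring pseudogene F45D11.1 had 0, 0.0292, 0.0754 and 0.0370 CPM in pals-22(jy3) libraries, 1.82, 1.39, 0.658 and 3.23 CPM in pals-25(jy111) libraries, 4.34, 10.3, 6.02 and 3.73 CPM in the double mutants and 8.01, 7.14, 5.20 and 5.64 CPM in WT libraries. It fell by 7.39 on the log2 scale (SE 0.64, adjusted p = 0.000143 by edgeR) in pals-22(jy3) mutants against the double mutants, a value that rests on 4 reads in pals-22(jy3), and its log2 fold change in pals-25(jy111) against the double mutants was -1.74 (SE 0.50, adjusted p = 0.116). The double mutants differed from WT animals by -0.14 in F45D11.1 (SE 0.32, adjusted p = 0.819). F45D11.1 was lower in pals-22(jy3) than in pals-25(jy111) mutants by edgeR without the block, with a log2 change of -5.63 (SE 0.75, adjusted p = 0.00223).

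The pseudogenes F45D11.2 and F45D11.3, whose exon lengths equal those of F45D11.4, were near the limit of detection. F45D11.2 had no read in pals-22(jy3) mutants, 13 reads in pals-25(jy111), 30 in the double mutants and 65 in WT animals, and F45D11.3 had 4 reads in pals-22(jy3), 2 in pals-25(jy111), 10 in the double mutants and 18 in WT animals. Neither was tested in any of the 6 comparisons, and the 0 reads of F45D11.2 in pals-22(jy3) mutants allow up to 3 in those libraries, so no fold is given. Left of the cluster, F45D11.5, F45D11.7, F45D11.8 and F45D11.11 and the F-box genes fbxb-29, fbxb-30 and fbxc-42 had no read in any of the 16 libraries, and fbxc-39 had 1. Right of it, M01D1.12 had none and btb-11, named for a BTB domain, had 1. The next gene, math-34, named for its MATH domain, had 16.8, 46.9, 30.3 and 52.1 CPM in pals-22(jy3) mutants, no read in pals-25(jy111), 2 reads in the double mutants and 3 reads in WT animals. Among the neighbours, reads above these limits were thus found on F45D11.1, F45D11.2, F45D11.3 and math-34, and math-34 was higher in pals-22(jy3) mutants where the members were lower.

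**Figure D5:**
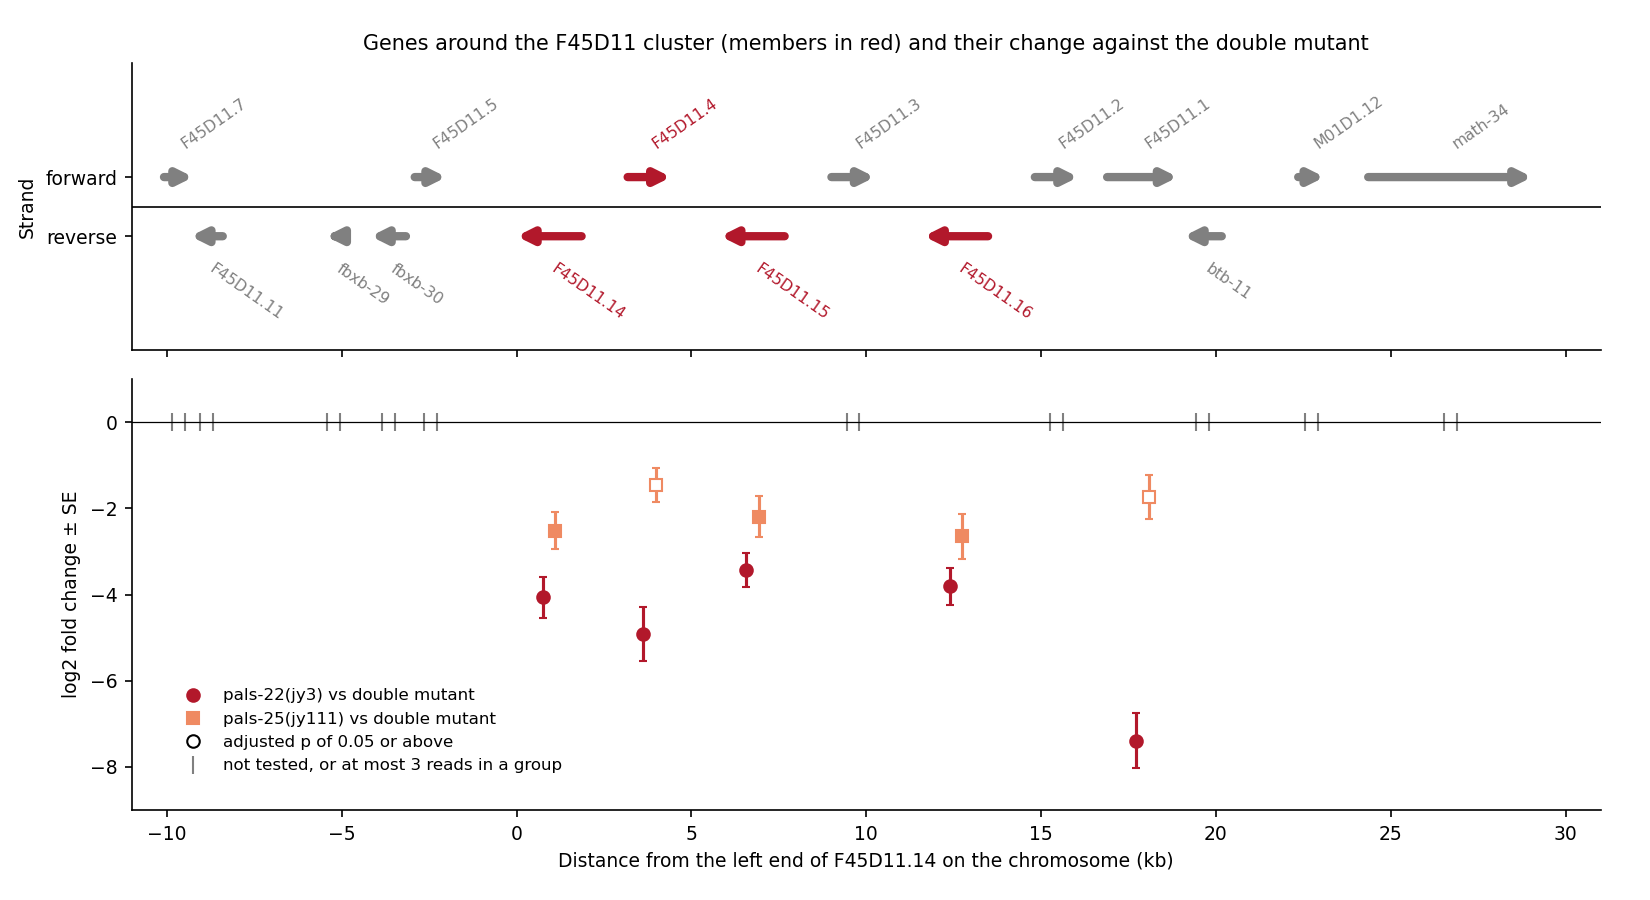
Upper panel, genes around the cluster as arrows in the direction of transcription (members in red) against the distance in kb from the left end of F45D11.14. Lower panel, log2 fold change ± SE by edgeR of pals-22(jy3) (circles) and pals-25(jy111) (squares) against the double mutants, where the 4 members and F45D11.1 are all below 0, filled symbols have an adjusted p under 0.05, and grey ticks are genes that were not tested or had at most 3 reads in a group.

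Among the genes related by exon lengths, K02E7.6 was more abundant per kb than any member, at 1.77 CPM per kb in pals-22(jy3) mutants, 5.87 in pals-25(jy111), 20.9 in the double mutants and 16.4 in WT animals. It had 1.88, 3.68, 2.83 and 3.81 CPM in pals-22(jy3) libraries, 6.82, 12.03, 5.38 and 16.3 CPM in pals-25(jy111) libraries, 22.2, 44.6, 30.02 and 47.7 CPM in the double mutants and 20.1, 41.2, 21.8 and 30.2 CPM in WT libraries. All 8 libraries of the single mutants were below all 8 others, as for the members. The log2 fold change of K02E7.6 was -3.61 (SE 0.33, adjusted p = 0.000209 by edgeR) in pals-22(jy3) against the double mutants and -1.80 (SE 0.40, adjusted p = 0.0525 by edgeR, 0.000288 by DESeq2 and 0.0445 by limma-voom) in pals-25(jy111) against the double mutants. It was lower in pals-22(jy3) than in pals-25(jy111), by -1.80 on the log2 scale (SE 0.41, adjusted p = 0.0237 by edgeR), and this call was lost, at an adjusted p of 0.0532 to 0.0653, without pals-22(jy3) replicate 2 or 3 or pals-25(jy111) replicate 2 or 4. B0462.1 went the other way, with 4.001, 4.88, 5.17 and 4.18 CPM in pals-22(jy3) libraries, at most 0.239 CPM in pals-25(jy111) libraries, at most 0.0762 CPM in the double mutants and at most 0.153 CPM in WT libraries. Its log2 fold change in pals-22(jy3) against the double mutants was 6.67 (SE 0.44, adjusted p = 3.19e-05 by edgeR).

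The 10 genes whose pattern was most like the members' mean log2(CPM + 0.5) over the 16 libraries, of 15321 genes, had Pearson correlations of 0.860 to 0.945. Their values in the same libraries are a description, since the likeness chose them. They included F45D11.1 (rank 5, 0.883) and K02E7.6 (rank 8, 0.864). First was B0310.6 on chromosome X, with 0.057 ± 0.029 CPM in pals-22(jy3) libraries, 0.115 ± 0.101 CPM in pals-25(jy111) libraries, 0.401 ± 0.0914 CPM in the double mutants and 0.694 ± 0.196 CPM in WT animals (SD, n = 4 each), a level near the filter. The third, fip-2, named as a fungus-induced protein, had 1.06 ± 0.256 CPM in pals-22(jy3) libraries, 3.96 ± 0.748 CPM in pals-25(jy111) libraries, 8.24 ± 1.38 CPM in the double mutants and 10.2 ± 1.28 CPM in WT animals. The noncoding RNA tts-1 had 11.98 ± 4.65 CPM in pals-22(jy3) libraries, 11.8 ± 3.53 CPM in pals-25(jy111) libraries, 29.4 ± 15.4 CPM in the double mutants and 31.7 ± 5.12 CPM in WT animals. The chloride channel gene clh-2 had 5.98 ± 0.720 CPM in pals-22(jy3) libraries, 10.4 ± 2.56 CPM in pals-25(jy111) libraries, 14.03 ± 2.11 CPM in the double mutants and 33.5 ± 4.03 CPM in WT animals. The others were Y71H2AM.3, F20D6.11, slc-25A42 and ril-2, whose means differed less between the genotypes. The list depends on the measure, since Spearman's correlation shared 3 of the 10 genes and correlations of within-genotype deviations shared 0.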

How the data were processed

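Whole-animal mRNA libraries (Illumina Stranded mRNA Prep) of 4 genotypes with 4 replicates each were read from 1 table of read counts per gene, which the authors made by aligning reads to WS235 with Rsubread and assigning them to genes with featureCounts, and deposited without normalization. Tool versions, the strand setting used in counting and how reads with several matches were handled were not stated in the material at hand. The number of count columns matched to no sample was 0. Each pair of genotypes was fitted on its 8 libraries in R 4.3.3 with edgeR 4.0.16 (TMM scaling, a minimum of 0.5 CPM in 4 or more libraries, quasi-likelihood test, Benjamini-Hochberg adjustment over all genes tested, threshold 0.05). SEs are the absolute log2 fold change divided by the root of F. DESeq2 1.42.0, limma-voom (limma 3.58.1, the tool of the study), RLE scaling, other filters, a prior count of 2, 1 fit over 16 libraries, a replicate block, summed member counts and leaving out each library were the alternatives. P-values measure the spread between the libraries labelled as biological replicates, and Clopper-Pearson intervals cover counting error only. The members and lists were chosen with earlier results of these data known.

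Gene positions were taken from the Ensembl annotation of WBcel235, and 15 of 15 F45D11 genes were placed by gene ID or by RefSeq coordinates. The name table gives WBGene00018460 the symbol of F45D11.16, and it is called F45D11.15 here by its coordinates. Genes named are the members, their neighbours on the chromosome, genes related by exon lengths and the 10 most alike by Pearson correlation of log2(CPM + 0.5). As deviations from group means, same-numbered libraries correlated by 0.48 to 0.892 in pals-22(jy3) and pals-25(jy111). They correlated by 0.151 to 0.855 in pals-25(jy111) and WT and by 0.175 to 0.844 in pals-22(jy3) and WT. The main fits did not pair the libraries in any comparison, and the replicate block was run as an alternative only. Same-numbered libraries of the double mutants correlated by -0.2 to 0.462 with WT, 0.0456 to 0.475 with pals-22(jy3) and 0.087 to 0.397 with pals-25(jy111). The lowest value was that of replicate 4 in each of these comparisons. A planned protein search and promoter motif search were not run, since no sequence was used here.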

Additional observations from a re-analysis of the deposited data

Results flagged for a closer look

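In 4 genes around the members or related to them by exon lengths, the difference of pals-22(jy3) from pals-25(jy111) passed edgeR's test, so that their changes against WT animals differed between the single mutants. They are listed because they passed. Of all 14847 genes tested in that comparison, 907 were lower and 1109 higher in pals-22(jy3) mutants. The pseudogene F45D11.1 had 4 reads in pals-22(jy3) mutants and 186 in pals-25(jy111) mutants (adjusted p of the difference 0.00223), and was lower in 4 of 4 pals-22(jy3) libraries than in any pals-25(jy111) library. K02E7.6 averaged 3.05 ± 0.896 CPM in pals-22(jy3) mutants and 10.1 ± 5.002 CPM in pals-25(jy111) mutants (SD, n = 4 each, adjusted p of the difference 0.0237 by edgeR), without overlap of the libraries.

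The pseudogene B0462.1 had 560 reads in pals-22(jy3) mutants and 20 in pals-25(jy111) mutants (adjusted p of the difference 1.74e-05 by edgeR). The gene math-34 had 4418 reads in pals-22(jy3) mutants and 0 in pals-25(jy111) mutants (adjusted p of the difference 0.00123 by edgeR). Both were higher in 4 of 4 pals-22(jy3) libraries than in any pals-25(jy111) library. The longer growth of pals-22(jy3) mutants cannot be told apart from their genotype in these differences.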

How the results depend on the processing

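Among the 4 members, the calls in pals-22(jy3) against the double mutants (4 of 4) and the count of 0 in the double mutants against WT were kept under every alternative run. In the main fits, 11.1% and 6.07% of all genes tested were lower in these comparisons. Every alternative reuses libraries that chose the genes, so calls that are kept are no independent support. In pals-25(jy111) against the double mutants, 3 of 4 genes were called by edgeR, 4 by DESeq2, and 0 to 3 with 1 library left out. Of all genes tested there, 0.943% were lower in the main fit. In pals-22(jy3) against pals-25(jy111), where 0 of 1 gene tested was called, 2 of 4 were called with no filter on low counts, 2 with 0.5 CPM in at least 1 library and 2 in 1 fit over 16 libraries. All 4 members were tested in these 3 settings. Under 0.5 CPM in at least 1 library the added members pass only through pals-25(jy111) libraries, where they are higher, and the 16-library fit also changes the model, so the cause of its count was not tested. With the replicate number as a block, 1 was called (F45D11.16, -1.08). The block kept 0, 4 and 3 of 4 calls in the comparisons with the double mutants, where the replicate 4 libraries correlated least. It kept 4 of 4 calls in both comparisons that chose the members.

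In the double mutants against WT, leaving out 1 library gave log2 fold changes of -0.62 to 0.16 for F45D11.14 (0.04 without double mutant replicate 3), -0.86 to 0.027 for F45D11.16 and -0.51 to 0.029 for F45D11.1. RLE scaling gave 1182 genes lower and 2028 higher in pals-22(jy3) against the double mutants, against 1657 and 1678 with TMM, and 1276 lower and 1845 higher against WT, against 1675 and 1476, with the same calls on members. Of the 10 most alike genes, 3 were shared with Spearman's correlation and 0 with within-genotype deviations. Of the single-gene values, 256 of those with a library left out and 270 of the others kept direction and call, 26 lost and 2 gained a call with a library left out, and 18 gained one otherwise. The search by exon lengths was chosen after seeing the data. The low counts of F45D11.4 in pals-22(jy3) mutants (4 reads) limit its fold changes.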
